A study of Schmidtea mediterranea with 24 samples.

Results

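In the anterior tissue of planarian tail fragments, 61 transcript contigs differed in the same direction between egr-2 RNAi and control RNAi at every time sampled, 0 h, 2 days and 4 days after amputation. They were chosen from a count table of 28069 contig IDs, of which 19761 had enough counts to be tested and 15792 had a mean of at least 1 CPM (read counts scaled to a common library size, here with edgeR's TMM factors). A contig was taken where all 4 egr-2 RNAi values lay above, or all 4 lay below, the 4 control values at each of the 3 times. This gave 51 contigs that were higher under egr-2 RNAi, here called risers, and 10 that were lower, called fallers. These names refer to the RNAi difference and not to the change over time. Risers were 0.323% and fallers 0.0633% of the contigs with at least 1 CPM. The measured RNAi difference chose the members, so its size is given below as a description and without a test. The changes over time within a condition were not part of the rule and were tested, though on the same values that the rule used.

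Planarians rebuild missing body parts from neoblasts, the dividing stem cells of the adult body, and from existing tissue that is remodelled as the new part forms. Genes of the EGR (early growth response) family encode zinc-finger transcription factors, which bind DNA and alter the transcription of other genes. Feeding double-stranded RNA to planarians lowers the RNA of the matching gene by RNA interference, and because the animals keep dividing stem cells, an effect can be followed through a later round of regeneration.

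The animals were asexual Schmidtea mediterranea of a single clonal line, CIW4, so all 24 libraries share 1 genetic background. Animals of the 3 egr-2 RNAi groups received double-stranded RNA against egr-2, and those of the 3 control groups received double-stranded RNA against egfp, a jellyfish gene that planarians lack. In every group 2 µg of double-stranded RNA was mixed with liver in each of 6 feedings, after which the animals went without food for 7 days and were amputated. Each replicate held RNA from the front part of 10 pooled tail fragments, and the 6 groups had 4 biological replicates each. The 0 h groups hold tissue from the time of amputation, and the later groups hold the end of the fragment that faces the cut. The deposited tables list contig IDs without gene names, so no member can be given a role, the egr-2 transcript cannot be found among them, and neither the knockdown nor the labelled tissue could be checked from the counts.

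Libraries held between 13449251 and 30829850 counts. The first egr-2 RNAi replicate at 0 h stood apart: across contigs its log2 deviations from the mean of its group had an SD of 0.425, against 0.146 to 0.253 in the other 23 libraries. Within its group it had the lowest value of 6 of the 10 fallers. Without it, the same rule gave 61 risers and 17 fallers, and the members' median log2 effect at 0 h was 0.34 in place of 0.37 for risers and -0.39 in place of -0.38 for fallers.

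The number of fallers depended on single libraries and on the scaling more than the number of risers did. Leaving out 1 library makes the rule easier to meet by construction, and the count of risers then ran from 52 to 89, the latter without the third egr-2 RNAi replicate at 2 days. The count of fallers ran from 10 to 38: it was 38 without the third egr-2 RNAi replicate at 0 h, 28 without the fourth control replicate at 0 h, 17 without the first control replicate at 0 h and, as above, 17 without the first egr-2 RNAi replicate. In each of these fits at least 50 of the 51 risers and at least 9 of the 10 fallers were still members. That too follows largely from the construction, since leaving out a library removes values to compare and adds none. Scaling by total counts alone gave 36 risers, of which 32 were members, and 24 fallers, of which 7 were members. Asking in addition for group means at least 0.32 apart on the log2 scale at each time left 13 risers and 2 fallers.

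The gap between the groups was small for most members. On the log2 scale the smallest distance between the nearest egr-2 RNAi and control values had a median of 0.042 among risers and 0.029 among fallers. The riser just inside the rule had a gap of 0.000443 and the nearest contig outside a gap of -0.000919, a negative value being an overlap. For fallers the corresponding gaps were 0.00148 and -0.00166. The minimum of 1 CPM kept nothing out, as no contig under it met the rest of the rule, and the lowest mean was 5.20 CPM among risers and 10.3 CPM among fallers. At 1 time alone, lack of overlap was frequent: egr-2 RNAi values lay above all controls for 8.23% of contigs at 0 h, 4.49% at 2 days and 5.40% at 4 days, and below for 2.84%, 3.55% and 5.10%. A further 369 contigs lay above and 191 lay below at 2 of the 3 times.

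The riser with the highest mean CPM was dd_Smed_v6_27_0_1, a contig of 629 bases. Its control values were 1765, 2298, 2137 and 2315 CPM at 0 h, against 2871, 2618, 2887 and 2988 CPM under egr-2 RNAi. At 2 days the control values were 2288, 2369, 2085 and 2229 CPM and the egr-2 RNAi values 2976, 2879, 2464 and 2806 CPM. At 4 days they were 2090, 2126, 2168 and 2334 CPM and 2967, 2756, 2413 and 2862 CPM. All 12 egr-2 RNAi values lay above all 12 control values, whichever the time. The fitted RNAi effect was 0.42 (SE 0.07) at 0 h, 0.31 (SE 0.07) at 2 days and 0.34 (SE 0.07) at 4 days on the log2 scale. No change over time passed the test in either RNAi condition (edgeR quasi-likelihood test, adjusted p between 0.42 and 0.90 over 6 comparisons), although with scaling by total counts alone the changes from 0 h to 2 and 4 days passed it, at 0.32 and 0.30 in controls and 0.26 and 0.29 under egr-2 RNAi. A riser of 980 bases was the other member whose 12 egr-2 RNAi values all lay above its 12 control values, with control means of 52.7, 50.3 and 42.5 CPM at 0 h, 2 days and 4 days and egr-2 RNAi means of 77.1, 63.4 and 65.2 CPM. No faller separated in this way.

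The riser dd_Smed_v6_58_0_1, 600 bases long, had the largest RNAi effect at its weakest time. Its control values at 0 h were 48.4, 208, 40.4 and 234 CPM, and its egr-2 RNAi values 308, 324, 404 and 633 CPM. At 2 days they were 50.1, 39.8, 43.6 and 37.2 CPM in controls and 82.0, 85.8, 70.7 and 86.3 CPM under egr-2 RNAi. At 4 days they were 16.2, 12.8, 18.0 and 20.9 CPM and 46.6, 31.0, 23.7 and 38.2 CPM. The groups did not overlap at any time, but at 0 h the controls comprised 2 low and 2 high libraries. The RNAi effect was 1.64 (SE 0.34) at 0 h, 0.93 (SE 0.36) at 2 days and 1.04 (SE 0.37) at 4 days, and without the fourth control replicate the value at 0 h was 2.07. Each SE uses an estimate of spread shared by all 6 groups, so the split of the 0 h controls enters the SE at 2 and 4 days too. The contig fell after amputation in both conditions. In controls the fall was 1.65 on the log2 scale from 0 h to 2 days (SE 0.36, adjusted p = 0.00029) and 2.97 from 0 h to 4 days (SE 0.38, adjusted p = 1.3e-07). Under egr-2 RNAi it was 2.36 (adjusted p = 1.8e-06) and 3.58 (adjusted p = 3.0e-09), all by edgeR's quasi-likelihood test. The control fall to 2 days rested on the 2 high libraries at 0 h. The 2 low ones, at 48.4 and 40.4 CPM, lay within the 2-day range of 37.2 to 50.1 CPM.

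The faller with the highest mean CPM was dd_Smed_v6_2009_0_1, of 2817 bases. At 0 h its control values were 341, 347, 387 and 350 CPM and its egr-2 RNAi values 312, 318, 294 and 270 CPM. At 2 days the values were 186, 199, 235 and 209 CPM against 154, 154, 176 and 140 CPM, and at 4 days 242, 238, 249 and 225 CPM against 209, 217, 210 and 194 CPM. Each egr-2 RNAi group lay just under its control group, and both conditions were highest at 0 h and lowest at 2 days. The RNAi effect was -0.26 at 0 h, -0.41 at 2 days and -0.20 at 4 days (SE 0.07 each). From 0 h to 2 days the contig fell by 0.78 on the log2 scale in controls (edgeR quasi-likelihood test, adjusted p = 1.2e-10) and by 0.94 under egr-2 RNAi (adjusted p = 2.5e-12). It was higher at 4 days than at 2 days under egr-2 RNAi, by 0.41 (edgeR, adjusted p = 3.8e-05). In controls that rise was 0.20 (edgeR, adjusted p = 0.033), a call that was lost in 6 of 8 fits with 1 library fewer (replicate 1, 2 or 4 at 2 days and replicate 1, 2 or 3 at 4 days), with values of 0.15 to 0.21.

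The faller with the largest effect at its weakest time was dd_Smed_v6_9273_0_1, of 1670 bases. At 0 h it held 3.20 to 6.37 CPM in controls and 0.819 to 1.36 CPM under egr-2 RNAi. After 2 days controls held 45.7 to 71.4 CPM and egr-2 RNAi fragments 15.2 to 21.6 CPM, and after 4 days 43.1 to 48.9 CPM and 12.6 to 17.0 CPM. The conditions were far apart at every time, and both rose after amputation. Up to 2 days the rise was 3.88 on the log2 scale (SE 0.16, edgeR adjusted p = 4.7e-18) in controls and 4.11 (SE 0.21, adjusted p = 4.2e-16) under egr-2 RNAi. Its smallest gap between groups, 1.08 on the log2 scale, was the widest among all 61 members. Since egr-2 cannot be identified from the IDs, whether this or another faller is the targeted transcript is not known.

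**Figure D1:**
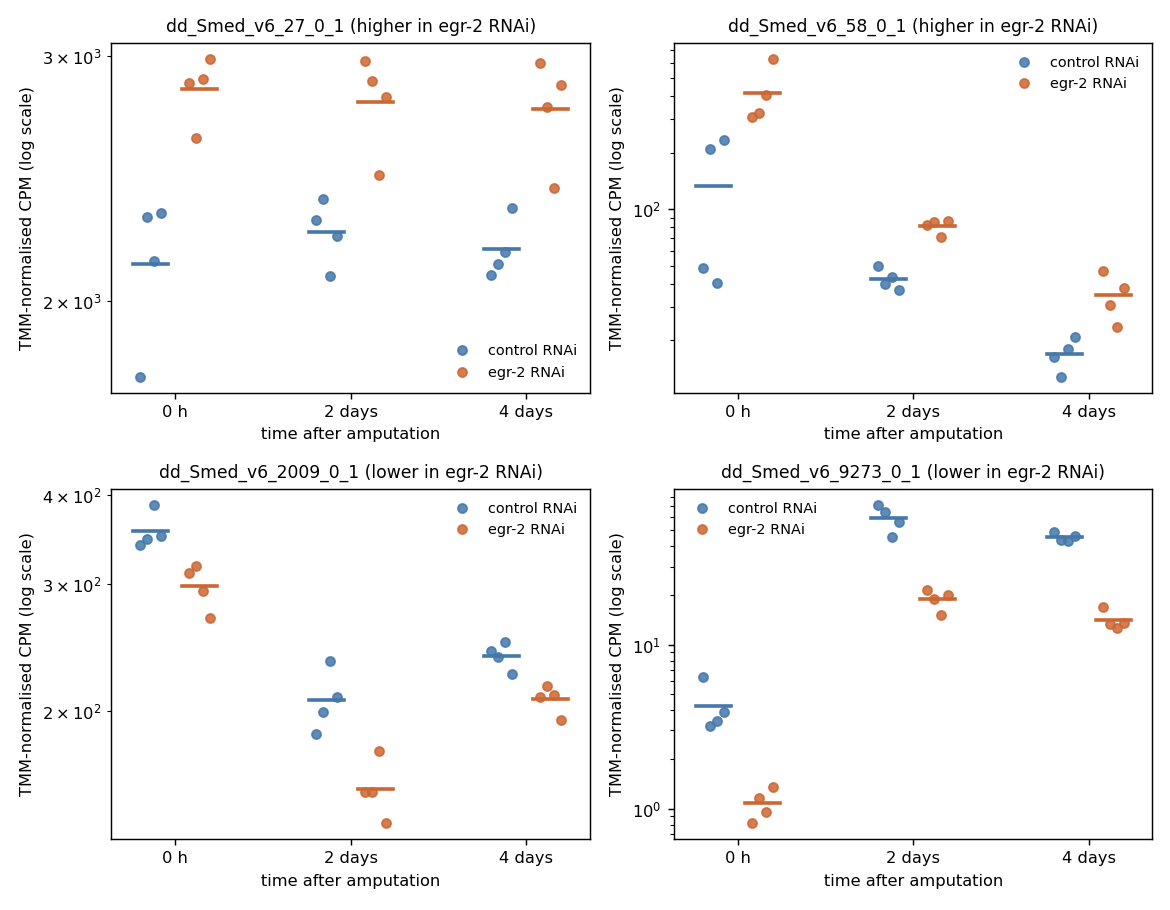
TMM-normalised CPM (log axis) of the 4 named contigs in each of the 24 libraries by time after amputation, with control RNAi and egr-2 RNAi libraries as separate points and bars at the group means. Both risers lie higher and both fallers lower under egr-2 RNAi at each time, and dd_Smed_v6_58_0_1 shows 2 low and 2 high control libraries at 0 h.

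Across all 51 risers the median RNAi effect was 0.37 on the log2 scale at 0 h, 0.27 at 2 days and 0.39 at 4 days. Single risers ranged from 0.13 to 2.38 at 0 h, from 0.11 to 0.93 at 2 days and from 0.07 to 1.97 at 4 days. Over all contigs with at least 1 CPM the medians were 0.03, 0.01 and -0.01. Taken without sign they were 0.12, 0.080 and 0.079, so effects of contigs in general were larger at 0 h than later. The effect of 32 risers was smallest at 2 days, against 10 at 0 h and 9 at 4 days. It was largest at 0 h for 25, at 4 days for 21 and at 2 days for 5. Such counts were not made for all contigs, either here or for the fallers below. Most effects were small: 30 of 51 stayed under 0.5 on the log2 scale at every time, while 5 were at least 2-fold higher at 0 h, none at 2 days and 4 at 4 days.

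The 10 fallers had median effects of -0.38 at 0 h, -0.29 at 2 days and -0.34 at 4 days. Their effects ranged from -1.87 to -0.18, from -1.64 to -0.10 and from -1.68 to -0.08. The difference was largest at 0 h for 7 fallers, and smallest at 2 days for 6 and at 4 days for 4. As among risers, most were small, with 6 of 10 under 0.5 on the log2 scale at all times. The faller dd_Smed_v6_9273_0_1 was the only one to reach 2-fold, which it did at each time.

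In bulk tissue, more cells of a type and more RNA per cell cannot be told apart for a riser, nor fewer cells and less RNA per cell for a faller.

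**Figure D2:**
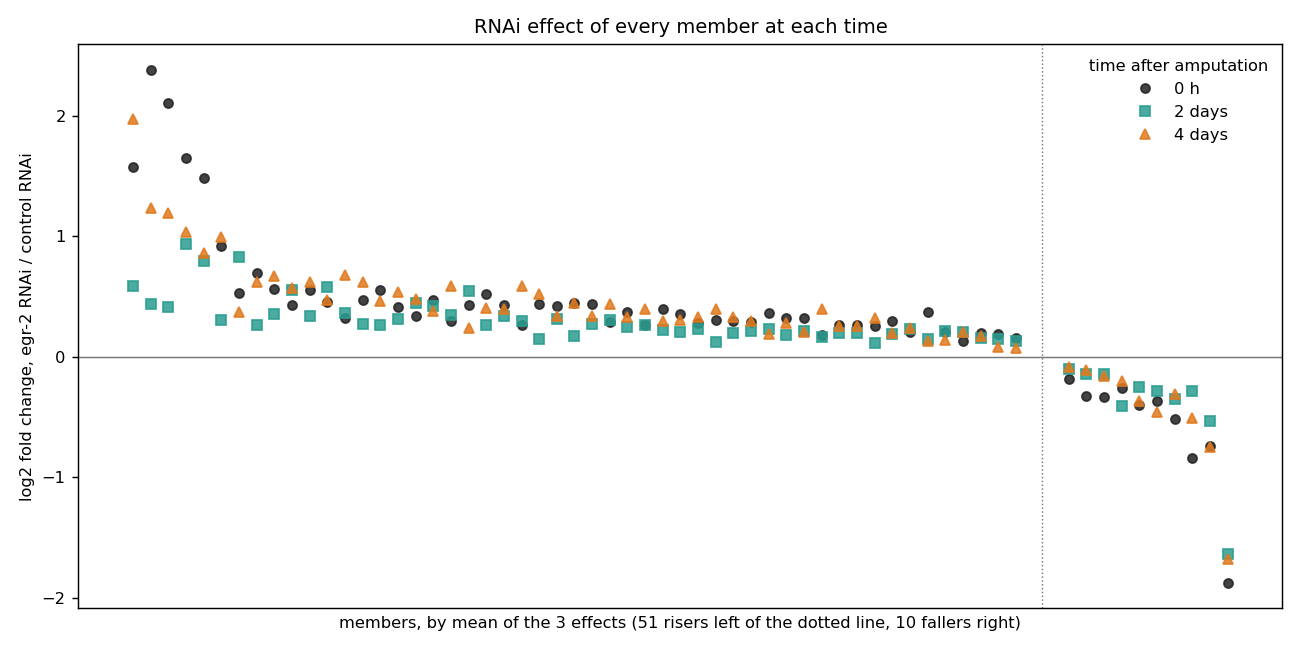
Log2 fold change of egr-2 RNAi over control RNAi at 0 h (circles), 2 days (squares) and 4 days (triangles) for each of the 61 members, ordered by the mean of the 3 effects. The 51 risers lie left of the dotted line and the 10 fallers right of it; 30 risers and 6 fallers stay within 0.5 of zero at all times.

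Together the risers held 0.718% ± 0.084 (SD, n = 4) of the counts of control libraries at 0 h, 0.780% ± 0.027 at 2 days and 0.632% ± 0.028 at 4 days. Under egr-2 RNAi their share was 0.983% ± 0.097, 0.961% ± 0.052 and 0.814% ± 0.040. Fallers held 0.105% ± 0.006, 0.0894% ± 0.0017 and 0.0975% ± 0.0028 in controls and 0.0736% ± 0.011, 0.0693% ± 0.0044 and 0.0795% ± 0.0010 under egr-2 RNAi. The direction of these differences follows from the way members were chosen.

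Most risers declined over the days after amputation, also in control fragments. From 0 h to 2 days in controls, 27 of 51 risers fell and 14 rose, beside 27.0% of all contigs with at least 1 CPM called lower and 29.3% called higher (edgeR quasi-likelihood test, adjusted p below 0.05 over all tested contigs). By 4 days 37 had fallen and 5 had risen from 0 h, beside 27.2% and 29.8%. From 2 to 4 days, 26 fell and 5 rose, beside 13.0% and 13.1%. The median change of the risers was -0.22, -0.41 and -0.19 on the log2 scale for the 3 intervals, against 0.01, 0.02 and -0.01 for all contigs. Between 0 h and 4 days 10 risers were at least 2-fold lower and 2 at least 2-fold higher. Members were more abundant than contigs in general. Their median of the mean CPM was 58.6 for risers and 62.2 for fallers, against 17.9 for all contigs with at least 1 CPM. Low counts limit the precision of rare contigs, so fewer of their changes can be called. The part of abundance in the shares called was not tested.

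The same direction was seen in egr-2 RNAi fragments. Between 0 h and 2 days 30 risers fell and 12 rose, beside 28.7% and 29.1% of all contigs. By 4 days 35 had fallen and 6 had risen from 0 h, beside 29.5% and 28.0%. From 2 to 4 days 22 fell and 5 rose, beside 17.5% and 14.1%. The medians were -0.29, -0.37 and -0.10 on the log2 scale.

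Fallers more often rose over time than fell, though they were few. In controls 5 rose and 3 fell from 0 h to 2 days, beside 29.3% and 27.0% of all contigs. From 0 h to 4 days 6 rose and 3 fell, beside 29.8% and 27.2%. From 2 to 4 days 5 rose and 1 fell, beside 13.1% and 13.0%. The share of fallers called lower from 0 h, 30% at either time, was near that of all contigs. Under egr-2 RNAi the counts that rose and fell were 6 and 2, 7 and 3, and 4 and 1. All contigs gave 29.1% and 28.7%, 28.0% and 29.5%, and 14.1% and 17.5% for these intervals. The median change of the fallers was 0.13, 0.33 and 0.18 on the log2 scale in controls and 0.26, 0.37 and 0.09 under egr-2 RNAi.

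The split of the risers' changes from 0 h depended on the scaling of the libraries. Scaling by total counts alone, without TMM factors, moved the median of all contigs up by 0.24 to 0.34 on the log2 scale for the changes from 0 h. With that scaling the risers in controls split into 20 higher and 17 lower from 0 h to 2 days and 14 higher and 23 lower from 0 h to 4 days. All contigs then split into 49.7% higher and 14.7% lower, and 53.9% higher and 13.8% lower. Under egr-2 RNAi the risers split into 19 and 17, and 17 and 22, beside 53.3% and 14.8%, and 59.2% and 12.6% of all contigs. In controls the risers gave 5 higher and 26 lower from 2 to 4 days, as many as with TMM factors, and the fallers gave 7 higher and 2 lower from 0 h to either time. Relative to the median of all contigs, 33 of 51 risers lay lower from 0 h to 2 days in controls, 40 from 0 h to 4 days and 38 from 2 to 4 days. Under egr-2 RNAi 37, 42 and 31 lay lower. Fallers lay above that median in 6, 7 and 6 of 10 cases in controls, and in 7, 7 and 5 under egr-2 RNAi.

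**Figure D3:**
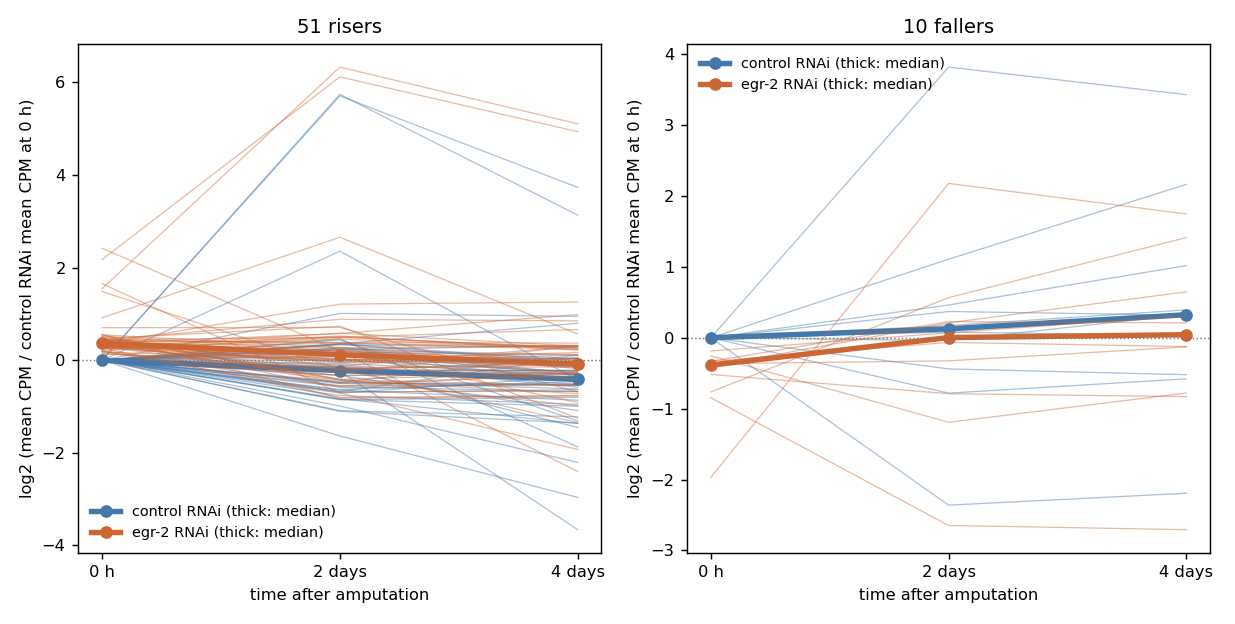
Log2 of the mean CPM of each member at 0 h, 2 days and 4 days after amputation relative to its control mean at 0 h, for the 51 risers (left) and the 10 fallers (right), with thin lines for single contigs and thick lines for the median. Both conditions of the risers decline in the median and both conditions of the fallers go up, while a few contigs move by several log2 units.

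By their calls against 0 h in control fragments the risers fell into 7 groups; both calls use the same 0 h libraries and are thus not independent of each other. The largest held 24 risers (47.1%, against 21.8% of all contigs) that were lower at both 2 and 4 days, with median changes of -0.60 and -0.64 on the log2 scale. A further 8 (15.7%, against 5.07%) were lower at 4 days only and 3 (5.88%, against 4.69%) at 2 days only. The group that was higher at 2 days and then lower than at the start by 4 days held 5 risers (9.80%), while 0.329% of all contigs had this course. There were 4 risers (7.84%, against 6.61%) higher at 2 days only, 5 (9.80%, against 22.4%) higher at both times, and 2 (3.92%, against 31.6%) with neither change called. No test of these shares against each other was made, and the higher abundance of the members, given above, was not allowed for.

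Among the 10 fallers 5 (50%, against 22.4% of all contigs) were higher at both times in controls, with median changes of 0.47 and 1.02 on the log2 scale. A further 3 (30%, against 21.8%) were lower at both times, with medians of -0.78 and -0.58. A single faller (10%, against 6.96% of all contigs) was higher at 4 days only, and 1 (10%, against 31.6%) had neither change called. In egr-2 RNAi fragments 8 of 10 fallers and 37 of 51 risers had the same calls as in controls, beside 66.6% of all contigs. Of the 24 risers that were lower at both times in controls 23 were so under egr-2 RNAi, beside 86.1% of all contigs with that course in controls. A call in one condition and not in the other is not a test of their difference.

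**Figure D4:**
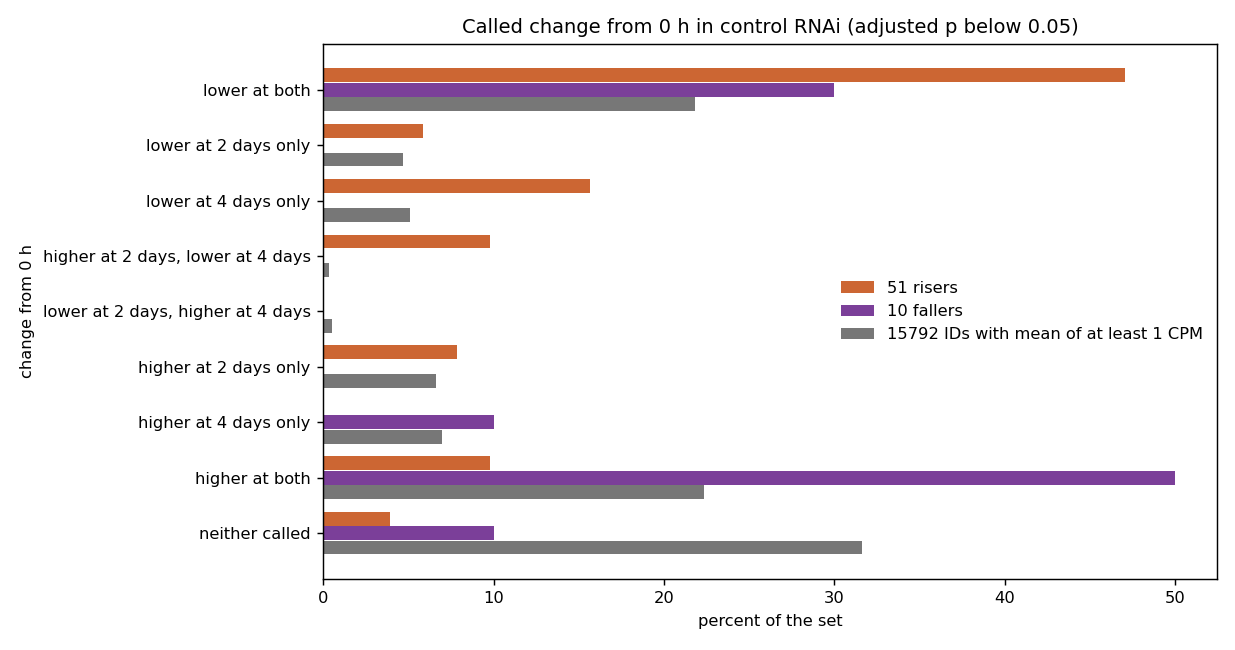
Percentage of risers, fallers and all 15792 contigs with at least 1 CPM in each class of called change from 0 h in control RNAi libraries. Lower at both times is the largest class of risers (47.1%) and higher at both times the largest of fallers (50%), while neither change was called for 31.6% of all contigs.

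Several risers had time courses far outside the common range. Of 2 risers that are both 523 bases long, one had control values of 5.80, 3.30, 5.43 and 5.02 CPM at 0 h, 165, 287, 284 and 310 CPM at 2 days and 42.1, 24.7, 64.2 and 40.5 CPM at 4 days. Under egr-2 RNAi the values were 9.45, 19.5, 12.3 and 15.9 CPM, then 343, 455, 338 and 439 CPM, then 177, 151, 125 and 221 CPM. The contig went from a low level at 0 h to a peak at 2 days in both conditions, and at 4 days all egr-2 RNAi libraries were well above the controls. It rose by 5.76 (SE 0.29) on the log2 scale from 0 h to 2 days in controls and by 4.78 (SE 0.25) under egr-2 RNAi, and then fell by 2.61 (SE 0.22) in controls and by 1.23 (SE 0.21) under egr-2 RNAi (edgeR adjusted p = 3.9e-16, 1.5e-15, 4.7e-10 and 4.8e-05). Its RNAi effects were 1.57 (SE 0.31), 0.59 (SE 0.21) and 1.97 (SE 0.22) at the 3 times.

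The other riser of 523 bases had a milder peak. Controls held 90.6 to 112 CPM of it at 0 h, against 152 to 218 CPM under egr-2 RNAi. After 2 days the ranges were 429 to 548 and 557 to 655 CPM, and after 4 days, below the start, 49.6 to 86.8 and 121 to 168 CPM. The change from 0 h to 4 days was -0.43 (SE 0.13, edgeR adjusted p = 0.0061) in controls and -0.35 (SE 0.12, edgeR adjusted p = 0.02) under egr-2 RNAi. Its RNAi effect was 0.92 at 0 h, 0.30 at 2 days and 0.99 at 4 days (SE 0.12 to 0.13).

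A riser of 1509 bases was almost undetected in control fragments at 0 h, with 2, 4, 4 and 9 counts in the 4 libraries. Under egr-2 RNAi at 0 h it had 12, 24, 23 and 29 counts. Mean values in controls were 0.245, 12.8 and 3.25 CPM at 0 h, 2 days and 4 days, and under egr-2 RNAi 1.11, 17.0 and 7.5 CPM. It was thus another contig with a peak at 2 days in both conditions. It was the only member with any library under 10 counts, and its RNAi effect at 0 h, 2.10 (SE 0.41), rests on them.

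A group of 4 risers moved together between libraries within their groups, each pair with an r above 0.8 after group means were removed. The riser dd_Smed_v6_58_0_1 was most like a riser of 730 bases, with a Pearson r of log2 CPM of 0.99 over the 24 libraries and 0.99 also after group means were removed. The 730-base riser had control values of 254, 1043, 189 and 1098 CPM at 0 h and thus the same 2 low and 2 high libraries; its egr-2 RNAi values there were 1375 to 2650 CPM. A riser of 1771 bases had 6.04, 19.5, 4.32 and 25.8 CPM in the same control libraries and 46.7, 75.6, 66.0 and 109 CPM under egr-2 RNAi. It dropped to 0.821 to 1.5 CPM in controls and 1.95 to 3.75 CPM under egr-2 RNAi at 4 days. The last of the group, of 1353 bases, had within-group correlations of 0.84 with dd_Smed_v6_58_0_1 and 0.93 with the 1771-base riser. A riser of 2526 bases reached 0.85 with the 1353-base riser but stayed under 0.8 with the rest of the group. The limit of 0.8 was a choice. These values share libraries and depth and are descriptions over 24 libraries. The 730-base riser, with a mean of 622 CPM, also shares its component number with a contig of 704 bases and a mean of 3093 CPM. That more abundant contig was no member and had effects of 0.55, 0.13 and 0.14, so reads may have been divided between them. Outside this group, a riser of 874 bases with a mean of 6.46 CPM shares its number with a contig of 870 bases and 13.8 CPM. That contig was no member either, with effects of 0.25, 0.06 and 0.009.

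The 1771-base riser had the largest effect of all risers at 0 h, 2.38 (SE 0.30), against 0.44 (SE 0.32) at 2 days and 1.24 (SE 0.52) at 4 days. Up to 2 days it fell by 2.22 on the log2 scale under egr-2 RNAi (SE 0.29, edgeR adjusted p = 2.3e-07), while in controls the change was -0.28 (SE 0.32, edgeR adjusted p = 0.51). The difference between these changes was -1.94 (SE 0.43), a value made of RNAi effects that the rule used and given without a test.

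Among fallers the strongest decline over time was that of a contig of 800 bases. It had 224, 269, 260 and 219 CPM in controls at 0 h and 85.2, 146, 207 and 102 CPM under egr-2 RNAi. At 2 days the ranges were 44.8 to 49.0 CPM and 35.0 to 41.9 CPM, and at 4 days 48.9 to 57.3 CPM and 33.9 to 40.3 CPM. Control replicates lay close together throughout, whereas the egr-2 RNAi replicates at 0 h differed 2.42-fold from lowest to highest, the lowest being the library that stood apart. The contig fell by 2.36 (SE 0.16) from 0 h to 2 days in controls and by 1.80 (SE 0.16) under egr-2 RNAi (edgeR adjusted p = 2.3e-13 and 7.3e-11).

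Differences between the RNAi effects at 2 times are made of the effects that the rule used, so they are given as values and nothing is read from their calls. The median difference (later minus earlier, log2 scale) was -0.11 for 0 h against 2 days, -0.01 for 0 h against 4 days and 0.10 for 2 against 4 days among risers, and 0.17, 0.14 and -0.03 among fallers, while over all contigs it was -0.02, -0.04 and -0.02. The strongly induced riser of 523 bases had a difference of 1.38 (SE 0.30) between its effects at 2 and 4 days.

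The rule used the RNAi effects that these 3 differences are made of, so the counts of calls below tell nothing about the members. The planned edgeR quasi-likelihood test called 0 risers and 0 fallers for the 3 differences. Of all contigs, 0.0127%, 0.101% and 0.0887% were called higher at the later time and 0.209%, 0.253% and 0.0253% lower. At an unadjusted p under 0.05 there were 9, 5 and 15 risers and 2, 0 and 1 fallers, beside 9.63%, 15.4% and 7.86% of all contigs. DESeq2 called 1, 0 and 3 risers and 0 fallers, beside 0.652%, 1.41% and 0.513%. For 0 h against 2 days 1 riser was called without the first egr-2 RNAi replicate, the second control replicate or the fourth control replicate at 0 h, and 1 faller without the third egr-2 RNAi replicate at 0 h. For 2 against 4 days 2 risers were called without the first egr-2 RNAi replicate at 0 h, the library that stood apart, and 1 riser without the first control replicate at 2 days or the third at 4 days.

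Fallers were mostly long contigs, while the lengths of risers lay nearer to those of all contigs. The median length was 1223 bases among risers (322 to 2808), 2853 bases among fallers (800 to 18152) and 1396 bases among all contigs with at least 1 CPM. Of the risers 20 of 51 (39.2%, against 50.0% of all contigs) were longer than the median of all contigs and none exceeded 4000 bases. Among fallers 8 of 10 were longer than that median and 4 exceeded 4000 bases, as did 4.90% of all contigs. Over all 15792 contigs the RNAi effect itself went with length, with a Spearman rho of -0.32 at 0 h, -0.21 at 2 days and 0.0034 at 4 days, across contigs that share libraries. In bins of rising length the median RNAi effect at 0 h was 0.10 for contigs of up to 500 bases, 0.11 up to 1000, 0.05 up to 2000, -0.03 up to 4000 and -0.14 above that.

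After a smooth trend on length was taken from each library, the rule gave 56 risers, of which 41 were members, and 7 fallers, of which 5 were members. None of the 4 fallers above 4000 bases still met the rule. The longest, of 18152 bases, had 285 to 334 CPM in controls and 154 to 284 CPM under egr-2 RNAi at 0 h, an RNAi effect of -0.52 (SE 0.11). With the trend removed that effect was -0.17, and at 2 days and 4 days it was -0.21 and -0.22 in place of -0.35 and -0.31. The faller dd_Smed_v6_2009_0_1 also missed the rule after the correction, whereas dd_Smed_v6_9273_0_1, dd_Smed_v6_27_0_1 and dd_Smed_v6_58_0_1 met it. The part of length in the choice of members beyond this correction was not tested.

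**Figure D5:**
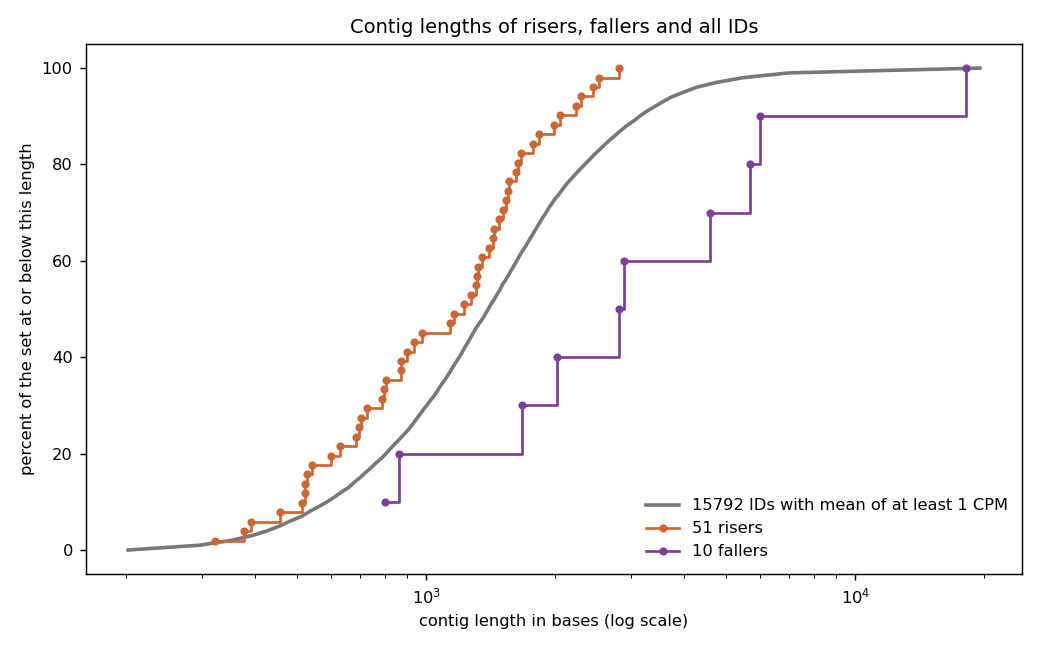
Cumulative percentage of the 51 risers, the 10 fallers and all 15792 contigs with at least 1 CPM by contig length in bases (log axis). The curve of the risers lies left of that of all contigs for most of its course, and that of the fallers lies right of it, with 4 fallers above 4000 bases.

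Replicates differed in the overall level of the members. After group means were removed, risers correlated with each other with a mean r of 0.20 over 1275 pairs and fallers with each other with a mean r of 0.24 over 45 pairs, while risers and fallers had a mean r of -0.15 over 510 pairs. Over all pairs of contigs with at least 1 CPM the mean was 0.0058. All of these run over the same 24 libraries. Of the 1830 pairs of members, 13 had an r above 0.8. The replicate numbered 3 had the lowest value of its group for 29 of 51 risers in controls at 0 h, 21 in controls at 2 days, 29 under egr-2 RNAi at 2 days and 35 under egr-2 RNAi at 4 days. In the other groups it was lowest for 10 risers each, and replicate 1 was lowest for 21 in controls at 4 days and replicate 2 for 20 under egr-2 RNAi at 0 h. In the authors' deposited table, all 61 members are present among 16812 contigs. Its calls rest on the same libraries and are not set beside those given here.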

How the data were processed

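RNA was sequenced from 24 libraries in 6 groups of 4 biological replicates. The authors deposited raw read counts per contig of a transcriptome assembly, 1 column per library per the file headers. The submitters' processing notes name FastQC 0.11.5, Bowtie2 2.3.1, featureCounts and Subread 1.6.3. Sources used here give no counting settings, strand use or assembly build. A second deposited table holds, per the file headers, the authors' log2 fold changes, average log2 CPM and adjusted p-values (false discovery rates). Only the presence of the members in it is used here.

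From the counts, TMM-normalised CPM and the edgeR quasi-likelihood test (edgeR 4.0.16, limma 3.58.1, R 4.3.3) were computed with a group-means model over all 24 libraries, for contigs kept by filterByExpr (minimum count 10, minimum total 15). P-values were adjusted by Benjamini-Hochberg over all 19761 tested contigs at 0.05, and background percentages are of the 15792 with at least 1 CPM. The SE of an effect is its absolute log2 value divided by the square root of the F statistic of its test. That test uses an estimate of each contig's spread shared by all 6 groups, so an SE does not describe the spread at 1 time alone. The tested contigs held 99.91% to 99.95% of the counts of each library. Low counts limit the precision of rare contigs; 60 of the 61 members had at least 10 counts in every library. The 36 replicate pairs differed by more than counting noise, with a chi-square per degree of freedom of 2.53 to 25.9. The scripts were tested on simulated data. The members, lists and lengths were chosen with earlier results of these data known. In each direction the named contigs are the one with the highest mean CPM, not corrected for length, and the one with the largest RNAi effect at its weakest time. Others are described without an ID.

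Alternatives were RLE factors, total counts alone, no filter, CPM minimums of 5 and 0.5, group means at least 0.32 apart on the log2 scale, DESeq2 1.42.0, only the compared groups, a replicate block, leaving out each library or the libraries numbered 1 and, added after seeing the data, removal of a lowess trend on length (span 0.3). No sequences, gene names or genome positions were used here.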

Additional observations from a re-analysis of the deposited data

How the results depend on the processing

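The counts of 51 risers and 10 fallers were 55 and 8 with RLE factors, 55 and 10 without the filter, 51 and 10 with CPM minimums of 5 or 0.5, 36 and 24 with total counts alone, 13 and 2 with group means at least 0.32 apart on the log2 scale, 119 and 46 without the libraries numbered 1, and 56 and 7 after the length correction. Without 1 library they were 52 to 89 and 10 to 38. The numbers of members called for a change over time, higher and lower together, stayed within 1.5 times of the main count in all alternatives. The same held with each library of the compared groups left out. The split by direction moved more. With total counts alone, 14 risers were higher and 23 lower in controls from 0 h to 4 days, against 5 and 37 with TMM factors. For the difference of RNAi effects from 0 h to 2 days, 1 riser was called without the filter, by DESeq2 and with the replicate block, and from 2 to 4 days 1 riser without the filter, 3 by DESeq2, 2 in a fit of only the compared groups and 1 with the replicate block. With any 1 of the 24 libraries left out, 0 to 1 risers and 0 to 1 fallers were called from 0 h to 2 days and 0 to 2 risers from 2 to 4 days. These calls rest on RNAi effects that the rule used, so nothing is read from them, and the cause of their changes was not tested.

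Near-zero time changes of dd_Smed_v6_27_0_1 changed sign. With total counts alone they were 0.26 (0 h to 2 days), 0.29 (0 h to 4 days) and 0.030 (2 to 4 days) under egr-2 RNAi, and 0.32 and 0.30 in controls from 0 h, with all 4 changes from 0 h then past the threshold. Without 1 library they ran from -0.0048 to 0.12 (0 h to 2 days) and from -0.046 to 0.077 (0 h to 4 days) in controls, and from -0.087 to 0.022, -0.086 to 0.0098 and -0.070 to 0.041 under egr-2 RNAi (0 h to 2 days, 0 h to 4 days and 2 to 4 days). Signs changed in controls at -0.0048 without the first control replicate at 0 h (0 h to 2 days) and -0.046 and -0.00015 without that library or the fourth at 4 days (0 h to 4 days). Under egr-2 RNAi they were 0.022 (0 h to 2 days, without the third replicate at 2 days), 0.0098 (0 h to 4 days, without the third at 4 days), and 0.026 and 0.041 (2 to 4 days, without the first at 2 days or the third at 4 days).

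Replicate numbers were not used as pairs. Same-numbered libraries had deviations from their group means that correlated by -0.12 to 0.28, with a mean of 0.045 over 60 pairs. Over 180 pairs of different number the range was -0.25 to 0.21 and the mean -0.015. An r above 0.1 was found in 9 of the 60 pairs and in 8 of the 180. Of 24 libraries, 14 correlated best with one of their own number, though each had more candidates of another number. Structure by replicate number was not tested beyond the replicate block. With the number as a replicate block, the risers called in controls were 43 from 0 h to 2 days and 42 from 0 h to 4 days, against 41 and 42. The block changed no other count of calls, higher and lower together, by over 1.5 times beyond the single risers above.

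Limits: lack of overlap in groups of 4 is a coarse rule, the median gap was under 0.05 on the log2 scale, and contigs without names cannot be tied to genes or cell types. Depth limits the riser of 1509 bases at 0 h.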
